A study of Arabidopsis thaliana with 12 samples.

Results

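Seedlings of Arabidopsis thaliana that had lost most transcript of the histone variant H3.3 were compared with seedlings that had lost most transcript of the histone variant H2A.Z. The comparison took 6 of the 12 RNA sequencing libraries of the study, 3 of the line h3.3kd and 3 of the line h2a.z, with no wild type library in the test. The remaining 6 libraries were 3 of the wild type Col and 3 of the combined line h3.3kd;h2a.z, and they are given here as values only. Every plant of every genotype was a whole seedling aged 7 days, raised at 21 °C in short days and kept at 27 °C for 12 h before RNA was taken. Plants kept throughout at 21 °C were not analysed here, and a response to warmth was therefore not measured. The genotype field names the H3.3 line h3.3kd-1 and the titles name it h3.3kd. The alleles or constructs behind either line, and whether each line is a single transformant, are points on which the sources used here say nothing. Nor is it given whether replicates were separate cultures, so p-values measure only the spread between these samples.

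Nucleosomes wrap DNA around core histones, and variants take the place of the common forms at chosen sites. H3.3 is put in outside DNA replication, mostly over transcribed gene bodies, by chaperones such as HIRA. H2A.Z is put in by the SWR1 complex near the start of genes and over the bodies of many genes that respond to stress, light and temperature, and its removal from such genes is known to accompany their induction in warm plants. The question asked here is which processes the 2 losses push apart in warm seedlings.

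The authors deposited TPM (transcripts per 1000000), which sets each gene against its length and each library to the same total. A gene was tested if it reached a TPM of 1 in at least 3 of the 6 libraries, which 19416 of the 23387 deposited genes did. Differences are h3.3kd minus h2a.z on the scale log2(TPM + 1), given ± standard error with n = 3 libraries against 3. They understate the change of low genes. A gene was called where limma, with Benjamini-Hochberg adjustment over all tested genes, gave an adjusted p under 0.05. Per-library values are in the order of the replicate numbers. TPM keeps no read depth, so no counting error can be given. In whole seedlings, fewer cells of a type and less RNA per cell cannot be told apart.

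The libraries of h2a.z lay close to their mean (root mean square distance 0.189 to 0.223 on the log2 scale) and those of h3.3kd less so (0.252 to 0.402, the farthest being h3.3kd 2). That library also had the fewest genes above 0 (19590, against 20831 to 22019 in the other 5) and the highest share of TPM in chloroplast genes (0.587%, against 0.188% to 0.347%). The 10 most abundant genes took 7.37% to 12.6% of the TPM in h3.3kd and 6.56% to 7.32% in h2a.z. Such genes lower every other TPM value of a library, and the part of this in the results was examined by rescaling.

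More genes stood higher in h2a.z than in h3.3kd. Of the 19416 genes tested, 1417 (7.3%) were called higher in h3.3kd and 4010 (20.7%) higher in h2a.z, and 13989 were not called. In 5375 of the 5427 called genes the libraries of the 2 lines did not overlap. Over all tested genes such separation was seen in 8422 (43.4%). The median difference over all genes was -0.17, so a TPM difference near that value is the middle of the table and not a departure from it. Rescaling each library by its median ratio moved this median to -0.02 and gave 2445 genes higher in h3.3kd and 3326 higher in h2a.z, or 42.4% higher in h3.3kd where TPM gave 26.1%. Quantile normalization gave a median of 0.05, with 2807 and 2725 genes, or 50.7%. The excess on the h2a.z side therefore depended on the scaling, while 1403 of the first group (7.23% of tested genes) and 2513 of the second (12.9%) were called in the same direction under both rescalings. Single libraries also moved the counts. Without h3.3kd 2 there were 6050 genes higher in h2a.z, and without h2a.z 2 there were 2663. The genes higher in h3.3kd numbered 924 without h3.3kd 3, 781 without h2a.z 2 and 808 without h2a.z 3.

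**Figure D1:**
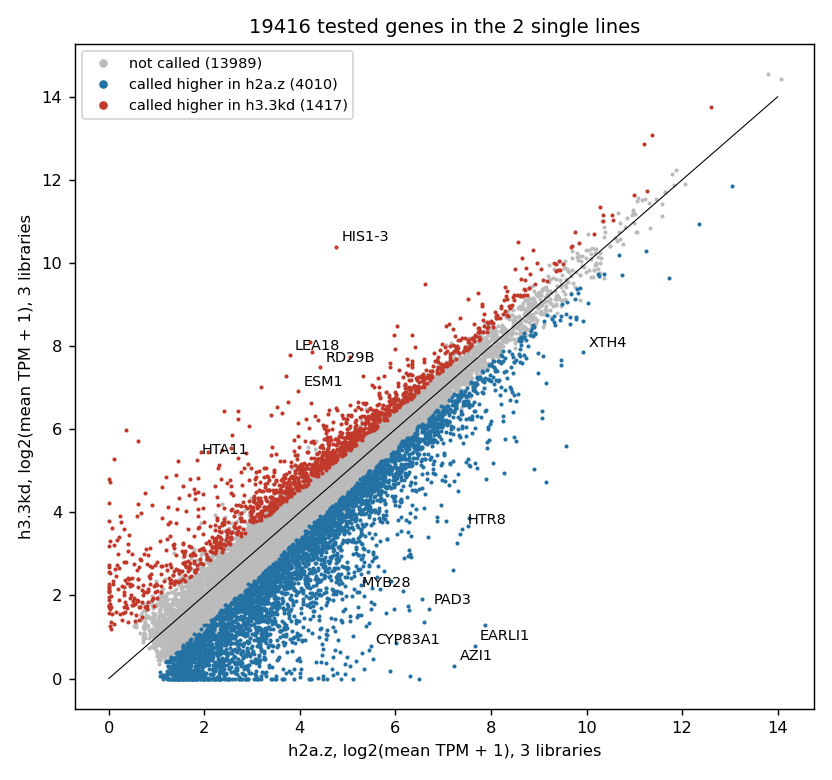
Each point is 1 of the 19416 tested genes, with log2 of mean TPM + 1 over the 3 h2a.z libraries on the x axis and over the 3 h3.3kd libraries on the y axis. The diagonal marks equal levels. The 1417 genes called higher in h3.3kd lie above it, the 4010 called higher in h2a.z lie below it, and the 13989 genes not called surround it. AZI1, EARLI1 and PAD3 are among the labelled points farthest below, and HIS1-3 and LEA18 are among those farthest above.

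Gene lists were described by how many tested members were called each way and by the median member, to be read beside 7.3%, 20.7% and -0.17 over all genes. A gene near 0 in 1 line could enter the test through the 3 libraries of the other line alone. Some list counts are therefore also given with a TPM of 1 or more required in all 6 libraries. Members below this leave the test, so a lower count can reflect a lost gene or a lost call. The number of members left is not given. Over all genes this filter called 2643 of 16913 higher in h2a.z, with a median of -0.12. Genes of the drought hormone abscisic acid (ABA) led on the h3.3kd side, with 16 of 29 higher in h3.3kd and 2 higher in h2a.z. Calls on this side were seldom lost by rescaling. Of all 1417, 1403 were kept under both, so a kept call sets no list apart. On the h2a.z side stood glucosinolate and camalexin synthesis, jasmonate, ethylene and salicylic acid defence, chaperones, and iron and phosphate acquisition. Growth genes of the warmth response and of auxin were split. Where 0 members were called higher in h3.3kd by limma, the count at an unadjusted p under 0.05 was 1 for the ORA59 branch and for flavonoids. It was 0 for jasmonate synthesis, aliphatic and indole glucosinolates, phosphate, DNA replication, mitosis, root hair, flowering and the lipid transfer cluster.

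**Figure D2:**
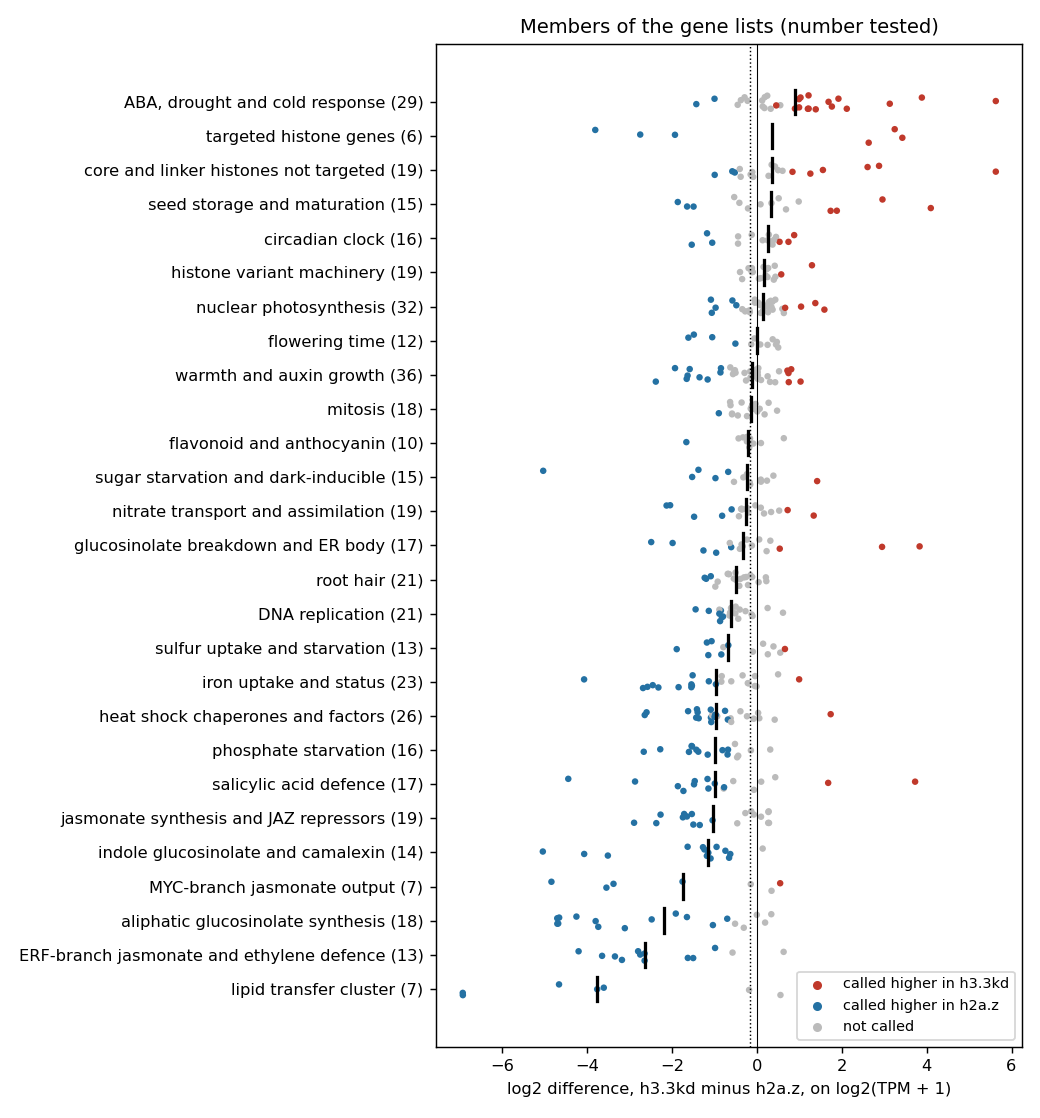
Differences in log2(TPM + 1), h3.3kd minus h2a.z, of the tested members of 27 gene lists, with each dot a gene, each black tick a list median and the dotted line the median of all tested genes (-0.17). Red dots were called higher in h3.3kd, blue dots higher in h2a.z and grey dots were not called. The ABA list has its median at 0.89, while aliphatic glucosinolate synthesis has -2.20 and the lipid transfer cluster -3.77.

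The targeted histone genes separated the lines as their names say. Among genes encoding H3.3, HTR4 (AT4G40030) stood at 65.6, 29.6 and 70.1 TPM in h3.3kd against 412, 336 and 317 in h2a.z (-2.75 ± 0.28, adjusted p = 9.3e-05 by limma). HTR5 (AT4G40040) stood at 77.6, 64.2 and 96.5 against 295, 292 and 319.8 TPM (-1.93 ± 0.16, adjusted p = 2.8e-05), and HTR8 (AT5G10980) at 9.28, 12.1 and 11.9 against 166, 156 and 182 (-3.81 ± 0.16, adjusted p = 9.4e-07). All 3 kept some transcript in h3.3kd, and the lines did not overlap at any of them. The Col means were 448.4 TPM for HTR4, 478.3 for HTR5 and 239.8 for HTR8. At all 3 every h2a.z library also lay below every Col library, so h2a.z was not at the wild type level of H3.3 transcript. Of the H2A.Z genes, HTA9 (AT1G52740) stood at 273, 136 and 228 TPM in h3.3kd and 31.3, 34.4 and 30.5 in h2a.z (2.63 ± 0.23, adjusted p = 3.5e-05). HTA11 (AT3G54560) stood at 48.8, 33.7 and 29.9 and 1.59, 2.96 and 3.19 TPM (3.43 ± 0.27, adjusted p = 1.8e-05), and HTA8 (AT2G38810) at 11.3, 6.72 and 8.49 and 0, 0 and 0.0605 (3.25 ± 0.26, adjusted p = 2.2e-05). HTA9 is the H2A.Z gene that kept most transcript in h2a.z. The Col means were 254.6 TPM for HTA9, 46.3 for HTA11 and 14.8 for HTA8. The h3.3kd libraries overlapped those of Col at HTA9 and HTA11 and lay below them at HTA8.

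Histone genes outside those 6 differed as well, mainly towards h3.3kd. The largest difference among all symbol-bearing genes on that side was HIS1-3 (AT2G18050), the linker histone known to be induced by drought. Its TPM was 1461, 966 and 1598 in h3.3kd against 31.4, 18.8 and 28.1 in h2a.z (5.63 ± 0.23, adjusted p = 9.4e-07 by limma), with 103, 50.5 and 119 in Col, so that h3.3kd lay above the wild type and h2a.z below it. The other linker histone genes moved less. AT2G30620 stood at 658, 562 and 651 against 222, 204 and 207 TPM (1.55 ± 0.13, adjusted p = 2.6e-05) and AT1G06760 at 583, 484 and 599 against 299, 308 and 320.3 (0.84 ± 0.13, adjusted p = 0.0012). Of 19 core and linker histone genes, 6 were called higher in h3.3kd (6 also under both rescalings, 10 without h3.3kd 2) and 3 higher in h2a.z (1 without h2a.z 2), with a median of 0.35. HTA7 (AT5G27670), an H2A.W gene of heterochromatin, stood at 218, 154 and 219.9 against 79.6, 76.5 and 86.9 TPM (1.26 ± 0.16, adjusted p = 0.00038). HTA4 (AT4G13570) stood at 11.4, 23.1 and 13.3 against 1.87, 1.91 and 1.27 (2.61 ± 0.28, adjusted p = 0.00014), which leaves it low in h2a.z. It is 1 of the 6 called higher in h3.3kd. Its annotation, histone H2A 4, does not say whether it encodes H2A.Z, so it may not count as a histone gene apart from the variant lost. The H2A gene HTA13 (AT3G20670) went the other way, at 43, 38.3 and 33.9 against 78.2, 81.5 and 72.4 (-1.0 ± 0.15, adjusted p = 0.00088). The H3 gene AT3G27360 was uneven in h3.3kd, at 56.1, 13.8 and 61.8 against 3.99, 3.5 and 4.97 (2.88 ± 0.46, adjusted p = 0.0013). It has near-identical copies among which reads may have been split. Of 19 genes of the machinery that deposits H3.3 or H2A.Z, 2 were called, both higher in h3.3kd. These were TAF14 (AT2G18000), a TBP-associated factor (1.3 ± 0.29, adjusted p = 0.0075), and the SWR1 subunit SWC4 (AT2G47210) (0.57 ± 0.17, adjusted p = 0.033), whose call ended when single libraries were left out and with the replicate number as a block.

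ABA is made when water is short. It binds receptors that switch off the clade A protein phosphatases, and this frees kinases that activate bZIP factors such as ABF3 and ABI5. These bind the ABA response element, whose core is ACGTG, before target genes. Of the 29 tested genes of this list, 16 were called higher in h3.3kd (16 also under both rescalings, and 13 to 20 with any library left out) and 2 higher in h2a.z, with a median of 0.89. HIS1-3 is counted both in this list and among the core and linker histone genes.

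The promoters of 3 strongly different genes are printed because each holds ACGTG repeatedly in the 250 bases before the gene start. The deposited table holds no coordinates, so windows were read from RefSeq, build TAIR10.1, by locus identifier. They are written 5′ to 3′ on the strand of the gene, with matches to ACGTG on either strand in capitals. RD29B lies at chr5:21236771-21237020 on the plus strand, LEA18 at chr2:14863413-14863662 on the minus strand and LEA4-5 at chr5:2090431-2090680 on the minus strand. They were chosen after matches and values had been seen.
RD29B: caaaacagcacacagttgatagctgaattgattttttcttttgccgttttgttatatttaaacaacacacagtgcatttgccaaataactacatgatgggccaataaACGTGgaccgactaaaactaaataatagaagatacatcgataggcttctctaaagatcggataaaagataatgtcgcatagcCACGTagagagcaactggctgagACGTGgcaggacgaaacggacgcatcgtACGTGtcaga
LEA18: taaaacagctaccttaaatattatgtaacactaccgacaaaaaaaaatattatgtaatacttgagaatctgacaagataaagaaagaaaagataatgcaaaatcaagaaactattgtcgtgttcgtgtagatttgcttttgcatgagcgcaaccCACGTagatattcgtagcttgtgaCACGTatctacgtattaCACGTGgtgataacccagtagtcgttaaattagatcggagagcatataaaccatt
LEA4-5: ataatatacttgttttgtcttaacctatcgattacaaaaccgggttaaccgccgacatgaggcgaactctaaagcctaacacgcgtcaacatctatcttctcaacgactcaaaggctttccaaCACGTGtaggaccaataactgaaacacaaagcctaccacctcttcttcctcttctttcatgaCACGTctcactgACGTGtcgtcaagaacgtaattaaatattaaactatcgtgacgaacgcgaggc

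Each window holds 4 matches, and in LEA18 and LEA4-5 a pair of them overlaps as the palindrome CACGTG. Over all tested genes ACGTG was found in 23.9% of 19316 such windows, against 29.7% of the 1396 windows of genes higher in h3.3kd and 24.7% of the 4010 of genes higher in h2a.z. For CACGTG, which contains ACGTG, the shares were 7.47%, 12.9% and 6.28%. Among the 121 windows of genes called higher in h3.3kd by 4-fold or more the shares were 46.3% for ACGTG and 27.3% for CACGTG, and among 633 such windows on the h2a.z side 26.2% and 5.06%. The 4-fold sets were added after the data had been seen. In the ABA list itself 15 of 29 windows held ACGTG. On the h2a.z side, 8 of 13 windows of the ORA59 branch list held it and 2 of 17 of the salicylic acid list. The motif was therefore not particular to the ABA list. A match is a stretch of letters and no sign of binding, and the window of HIS1-3 held none.

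Several effector genes of the pathway stood far apart. RD29B (AT5G52300), a protective protein gene that is a standard ABA and drought marker, stood at 177, 159.8 and 200.4 TPM in h3.3kd against 14.6, 29.7 and 16.9 in h2a.z (3.13 ± 0.24, adjusted p = 1.6e-05 by limma). Its neighbour RD29A (AT5G52310), which also responds to cold, stood at 66.1, 38.9 and 106 against 12.5, 18.6 and 12.3 (2.12 ± 0.32, adjusted p = 0.0009). The lines did not overlap at either gene, and Col lay between them at RD29B, with 49, 49.7 and 43.1 TPM. The dehydrin RAB18 (AT5G66400) stood at 346, 131 and 217 against 5.18, 36.5 and 12.3 (3.89 ± 0.55, adjusted p = 0.00065), with h2a.z 2 the highest of its line. P5CS1 (AT2G39800), the enzyme that commits glutamate to proline, stood at 81.7, 102 and 87.7 against 22.8, 25.4 and 29.6 (1.76 ± 0.16, adjusted p = 4.6e-05).

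Late embryogenesis abundant (LEA) genes, whose proteins protect cells that dry out, were 4 of the 10 largest called differences on this side among genes with a symbol. LEA18 (AT2G35300) stood at 308, 139.6 and 211 TPM in h3.3kd against 9.93, 22.3 and 6.2 in h2a.z (4.10 ± 0.40, adjusted p = 6.3e-05 by limma). AtLEA4-1 (AT1G32560) stood at 110.0, 53.9 and 93.8 against 3.46, 6.66 and 2.81 (4.04 ± 0.32, adjusted p = 2e-05). LEA4-5 (AT5G06760) stood at 104, 56 and 116 against 3.48, 22.3 and 5.56 (3.34 ± 0.52, adjusted p = 0.0011), and LEA7 (AT1G52690) at 88.1, 33.3 and 103 against 1.58, 13.7 and 1.26 (3.95 ± 0.65, adjusted p = 0.0015). In each, h2a.z 2 was the highest library of its line and still below every h3.3kd library. HVA22B (AT5G62490), related to an ABA-inducible gene of barley, stood at 25, 19.3 and 25.5 against 0.39, 1.45 and 1.69 (3.53 ± 0.29, adjusted p = 2.5e-05). Of all 64 tested genes whose product names late embryogenesis abundance, a wording that also takes hydroxyproline-rich glycoproteins, 17 were called higher in h3.3kd and 22 higher in h2a.z.

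Among the bZIP factors that carry the signal, ABF2 was not called (0.14 ± 0.26, adjusted p = 0.74 by limma), and ABF3 (AT4G34000) stood at 85.2, 66.6 and 78.5 against 26.3, 27.1 and 32.9 TPM (1.39 ± 0.16, adjusted p = 0.00021). Of the phosphatases that hold the pathway back, ABI1 (1.03 ± 0.15, adjusted p = 0.00065), AHG3 (1.20 ± 0.16, adjusted p = 0.00045) and HAI2 (1.92 ± 0.37, adjusted p = 0.0038) were higher in h3.3kd, while HAI3 was not called (0.12 ± 0.35, adjusted p = 0.83). The 2 members higher in h2a.z were CYP707A1 (-1.0 ± 0.25, adjusted p = 0.015) and CYP707A3 (-1.43 ± 0.30, adjusted p = 0.0059), enzymes that break ABA down, and the call of CYP707A1 ended under quantile normalization or without any single h2a.z library. Cold markers mostly did not pass, with COR15A at 0.18 ± 0.30, adjusted p = 0.69 and KIN2 at 0.18 ± 0.36, adjusted p = 0.75.

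Seed genes overlapped with this group only in part. Of 15 tested genes of seed storage and maturation, 4 were called higher in h3.3kd and 3 higher in h2a.z, with a median of 0.34 that fell to -0.04 without h3.3kd 3. On the h3.3kd side were LEA18, the ABA factor ABI5 (AT2G36270), at 15.7, 15.2 and 20.2 against 3.92, 3.69 and 3.96 TPM (1.88 ± 0.21, adjusted p = 0.00015 by limma), ECP63 (AT2G36640), another LEA gene (2.96 ± 0.51, adjusted p = 0.002), and the seed regulator ABI3 (AT3G24650), at 2.41, 6.21 and 2.54 against 0.12, 0.763 and 0.19 (1.74 ± 0.34, adjusted p = 0.0043). Of the 3 on the h2a.z side, 1 was called under each rescaling and none under both. They include the storage protein CRA1, at 38.7, 16.7 and 17.6 against 101, 25.8 and 106 TPM (-1.50 ± 0.49, adjusted p = 0.047), where the lines overlap. The summed TPM of the 9 seed and embryo markers was 45.1 to 79.3 in h3.3kd and 55.6 to 162.5 in h2a.z, which overlap, against 7.92 to 12.3 in Col. The part of these markers in the ABA result was not tested.

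Genes of the defence hormones lay mostly on the h2a.z side, and the hormones themselves were not measured. Jasmonate is made from membrane lipid by lipoxygenases, allene oxide synthase and allene oxide cyclases. It removes the JAZ repressors and so frees MYC factors, which drive wound genes, or, together with ethylene, the factors ORA59 and ERF1, which drive antimicrobial proteins. Of 19 synthesis and JAZ genes, 10 were called higher in h2a.z (9 under both rescalings) and 0 higher in h3.3kd, with a median of -1.05. With a mean TPM of 5 or more required, 6 were called higher in h2a.z and the median was -0.27. LOX3 (AT1G17420), a lipoxygenase, stood at 3.67, 3.75 and 3.07 TPM in h3.3kd against 21, 21.5 and 24.4 in h2a.z (-2.37 ± 0.20, adjusted p = 2.9e-05 by limma). The cyclase AOC3 (AT3G25780) stood at 1.27, 3.42 and 4.79 against 30.3, 27.9 and 25.6 (-2.90 ± 0.32, adjusted p = 0.00014), and the repressor JAZ1 (AT1G19180) at 7.23, 16.3 and 12.9 against 36.1, 34.5 and 45.5 (-1.65 ± 0.27, adjusted p = 0.0013). The lines did not overlap at these 3 genes. LOX2 (0.26 ± 0.28, adjusted p = 0.53) and AOS (-0.07 ± 0.15, adjusted p = 0.75), of the same route, were not called. Nor were the cyclases AOC2 (0.27 ± 0.27) and AOC4 (-0.27 ± 0.18) or the reductase OPR3 (-0.46 ± 0.23).

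Of 13 tested genes of the ORA59 branch, 11 were called higher in h2a.z (9 under both rescalings) and 0 higher in h3.3kd, with a median of -2.65. With a TPM of 1 or more required in all 6 libraries, 5 were called higher in h2a.z and the median was -1.50. ORA59 (AT1G06160) stood at 0.376, 0 and 1.29 TPM in h3.3kd against 12.7, 12.7 and 11.6 in h2a.z (-3.18 ± 0.31, adjusted p = 6.4e-05 by limma). The defensin PDF1.2 (AT5G44420) was listed at 0 in all 3 h3.3kd libraries and stood at 12.6, 21.5 and 19.4 in h2a.z (adjusted p = 6.7e-06). The related defensins PDF1.2b, PDF1.2c and PDF1.3 were likewise listed at 0 in all 3 h3.3kd libraries, and at 3.03 to 13.3 TPM in h2a.z. Reads could be split among these near-identical copies. HCHIB (AT3G12500), a basic chitinase, stood at 2.38, 2.51 and 3.26 against 23, 23.3 and 28.2 (-2.80 ± 0.21, adjusted p = 1.5e-05), and HEL (AT3G04720), of pathogenesis-related family 4, at 41.7, 20.1 and 35.8 against 149.6, 189 and 286 (-2.65 ± 0.29, adjusted p = 0.00013). In the combined line PDF1.2 was listed at 0 in all 3 libraries and ORA59 had a mean of 0.332 TPM.

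The 250 bases before PDF1.2, at chr5:17907639-17907888 on the minus strand (RefSeq, TAIR10.1), are shown because they hold the GCC box, GCCGCC, the sequence that ERF factors are known to bind. It is in capitals. The window also matches ACGTG on the other strand, left in lower case.
PDF1.2: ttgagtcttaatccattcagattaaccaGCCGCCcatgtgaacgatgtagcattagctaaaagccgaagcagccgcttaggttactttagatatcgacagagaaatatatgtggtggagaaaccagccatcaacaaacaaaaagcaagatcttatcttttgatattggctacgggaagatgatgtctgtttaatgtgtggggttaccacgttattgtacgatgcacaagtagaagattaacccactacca

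GCCGCC on either strand was found in 3 of the 13 windows of this list and in 1.95% of all tested windows, with 1.7% for genes higher in h2a.z and 1.93% for genes higher in h3.3kd. It was not in the window of HCHIB.

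Of the 7 genes of the MYC branch, 4 were called higher in h2a.z and 1 higher in h3.3kd, with a median of -1.76. With a TPM of 1 or more required in all 6 libraries, 1 was called higher in h2a.z and the median was 0.10. NATA1 (AT2G39030) encodes an acetyltransferase of jasmonate responses and was listed at 0 in all 3 h3.3kd libraries and stood at 13.5, 24.4 and 63.5 TPM in h2a.z (adjusted p = 4.9e-05 by limma). CORI3 (AT4G23600), a lyase induced by jasmonate mimics, stood at 1.19, 0.129 and 2.01 against 22.8, 15.8 and 28.8 (-3.55 ± 0.37, adjusted p = 9.4e-05). The storage protein gene VSP1 was higher in h2a.z as well (-1.75 ± 0.31, adjusted p = 0.0021), while VSP2 was not called (-0.15 ± 0.34, adjusted p = 0.79). The 1 on the other side was the factor MYC3 (0.55 ± 0.17, adjusted p = 0.038), whose call ended when single libraries were left out. MYC2 was not analysed here.

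Salicylic acid acts through NPR1 and WRKY factors, downstream of immune receptors and their partners EDS1 and PAD4. Of 17 genes, 10 were called higher in h2a.z (8 under both rescalings) and 2 higher in h3.3kd, with a median of -0.99. With a TPM of 1 or more required in all 6 libraries, 5 were called higher in h2a.z and the median was -0.56. PR5 (AT1G75040), a pathogenesis-related protein, was listed at 0 in all 3 h3.3kd libraries against 15, 25.4 and 23.6 TPM in h2a.z (adjusted p = 4.9e-06 by limma) and 3.43, 4.1 and 3.65 in Col. WRKY70 (AT3G56400) stood at 0.801, 1.41 and 0.731 against 13.4, 14.8 and 12 (-2.87 ± 0.24, adjusted p = 2.6e-05), and FMO1 (AT1G19250), which makes the mobile immune signal N-hydroxypipecolic acid, at 0.3, 0 and 0 against 2.1, 2.97 and 2.89 (-1.73 ± 0.26, adjusted p = 0.00084). PAD4 was higher in h2a.z (-1.48 ± 0.25, adjusted p = 0.0016). The receptor NPR1 (-0.07 ± 0.23, adjusted p = 0.84) and ICS1, which makes the precursor of salicylic acid (0.43 ± 0.23, adjusted p = 0.2), were not called.

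The window before PR5, at chr1:28177420-28177669 on the plus strand (RefSeq, TAIR10.1), is shown for the W box core TTGAC, known as the site of WRKY factors. It is found here on the other strand, as GTCAA in capitals.
PR5: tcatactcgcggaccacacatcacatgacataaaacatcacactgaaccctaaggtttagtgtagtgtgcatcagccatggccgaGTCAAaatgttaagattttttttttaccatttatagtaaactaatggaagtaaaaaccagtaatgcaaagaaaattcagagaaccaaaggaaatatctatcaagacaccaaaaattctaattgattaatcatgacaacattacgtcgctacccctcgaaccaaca

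TTGAC is common, being in 45% of all tested windows, in 45.2% of those of genes higher in h3.3kd and in 49.9% of those of genes higher in h2a.z. In the salicylic acid list 8 of 17 windows held it. The windows of PDF1.2 and PR5, like those above, were chosen because they hold a match.

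The 2 exceptions on the h3.3kd side were immune receptor genes of 1 cluster. RPP5 (AT4G16950) stood at 26, 53 and 30.7 TPM in h3.3kd against 1.75, 1.89 and 1.51 in h2a.z (3.73 ± 0.27, adjusted p = 1.3e-05 by limma) and SNC1 (AT4G16890) at 47.6, 125 and 70.6 against 21.9, 26.7 and 20.1 (1.68 ± 0.30, adjusted p = 0.0022). In h3.3kd both overlapped Col, which had 23.9, 27.3 and 32.2 TPM of RPP5 and 56, 78.5 and 81.9 of SNC1. Over all 71 tested genes annotated as TIR-NBS-LRR receptors, 7 were called higher in h3.3kd and 28 higher in h2a.z, with a median of -0.51. The 28 were 15 under both rescalings and 45 without h3.3kd 2. AT4G19510 stood at 32.5, 86.6 and 35.8 against 0.423, 0.579 and 0.554 (4.97 ± 0.34, adjusted p = 9.4e-06). AT4G16857 did the reverse, at 0.688, 1.56 and 0.869 against 34, 29.9 and 37.3 (-4.11 ± 0.23, adjusted p = 4.9e-06). Receptor genes in clusters resemble each other, so these values are uncertain where reads could be shared.

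The largest difference on the h2a.z side was that of AT5G42530, a gene with no symbol, at -6.94 ± 0.47 (adjusted p = 9.4e-06 by limma), which was named after its value was seen. Close behind were genes of a cluster of lipid transfer proteins on chromosome 4. AZI1 (AT4G12470), needed for the priming of systemic immunity, stood at 0.59, 0 and 0.124 TPM in h3.3kd against 127, 142 and 178 in h2a.z (-6.93 ± 0.24, adjusted p = 3.1e-07 by limma). EARLI1 (AT4G12480), its close relative, stood at 0.329, 0 and 1.85 against 146, 155 and 302 (-6.93 ± 0.39, adjusted p = 4.7e-06). Of the 7 tested genes of the cluster, 5 were called higher in h2a.z and 0 higher in h3.3kd, with a median of -3.77. With a TPM of 1 or more required in all 6 libraries, fewer were tested. Then 0 were called higher in h2a.z and the median was -0.19. AT4G12500 was listed at 0 in all 3 h3.3kd libraries and stood at 10.1, 9.51 and 14.7 TPM in h2a.z (adjusted p = 9.7e-06), whereas AT4G12510 was not called (0.55 ± 0.55, adjusted p = 0.5). In the whole family of lipid transfer proteins, 22 of 42 were called higher in h2a.z and 3 higher in h3.3kd (5 without h2a.z 1 or h3.3kd 1).

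**Figure D3:**
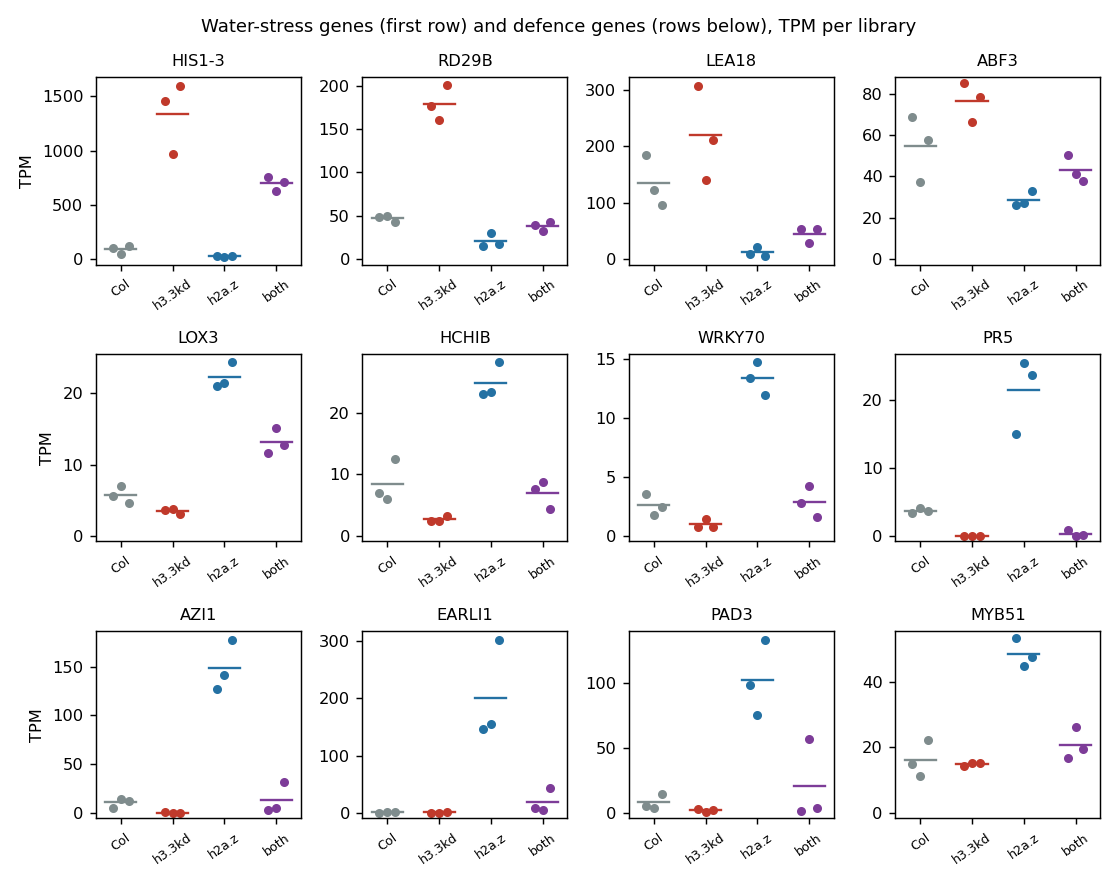
TPM of 12 genes in each library of Col, h3.3kd, h2a.z and the combined line (both), with each dot a library and the line the mean of 3. HIS1-3, RD29B, LEA18 and ABF3 stand higher in every h3.3kd library than in any h2a.z library, and LOX3, HCHIB, WRKY70, PR5, AZI1, EARLI1, PAD3 and MYB51 stand lower. PR5 is at 0 in all 3 h3.3kd libraries.

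Glucosinolates are sulfur-rich defence compounds of the cabbage family. Methionine is lengthened in the chloroplast by BCAT4, the MAM synthases, the isomerase IPMI and the dehydrogenase IMD1, and then converted by CYP79F and CYP83A1 to the aliphatic kind, under the factor MYB28. Tryptophan gives the indole kind, under MYB51 and MYB34, and also camalexin, the main antimicrobial compound of Arabidopsis leaves. Of 18 tested genes of aliphatic synthesis, 13 were called higher in h2a.z, the same number under both rescalings, and 0 higher in h3.3kd, with a median of -2.20. With a TPM of 1 or more required in all 6 libraries, 6 were called higher in h2a.z and the median was -0.70. MYB28 (AT5G61420) stood at 2.99, 3.98 and 2.69 TPM in h3.3kd against 40, 35.1 and 31.2 in h2a.z (-3.12 ± 0.21, adjusted p = 8.7e-06 by limma), with 34, 27.1 and 20.9 in Col. At MYB28 the h2a.z libraries overlapped those of Col, and the h3.3kd libraries lay below both, which was not so for every gene of the route.

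Within chain lengthening, BCAT4 (AT3G19710) stood at 0.234, 0.655 and 0.165 TPM in h3.3kd against 20.4, 41.3 and 43.8 in h2a.z (-4.68 ± 0.31, adjusted p = 8.7e-06 by limma). MAM3 (AT5G23020) stood at 0.109, 1.21 and 0.258 against 25.5, 43.3 and 45.7 (-4.71 ± 0.32, adjusted p = 9.4e-06). IPMI1 (AT3G58990) stood at 1.15, 2.94 and 1.55 against 34.2, 40.5 and 39.3 (-3.80 ± 0.25, adjusted p = 8.7e-06) and IMD1 (AT5G14200) at 0.985, 3.48 and 1.98 against 51.5, 94.1 and 85.4 (-4.66 ± 0.32, adjusted p = 9.5e-06). The lines were far apart at each, and h3.3kd 2 was the highest of its line at all 4. In Col the means were 1.88 TPM for BCAT4, 2.79 for MAM3 and 5.58 for IPMI1, nearer to h3.3kd than to h2a.z. CYP83A1 (AT4G13770), which acts on the lengthened chain, was even across h3.3kd, at 0.663, 0.611 and 0.591 against 28.3, 54.6 and 45.6 (-4.71 ± 0.26, adjusted p = 4.4e-06). Its Col libraries, at 28.5, 34.7 and 16.3 TPM, overlapped those of h2a.z. Later steps were split. The sulfotransferase SOT17 (-1.65 ± 0.18, adjusted p = 0.00012), the lyase SUR1 (-1.04 ± 0.15, adjusted p = 0.00083) and UGT74C1 (-0.70 ± 0.15, adjusted p = 0.0062) were higher in h2a.z, while the sulfotransferase SOT18 (-0.52 ± 0.19, adjusted p = 0.073) and GSTU20 (0.34 ± 0.16, adjusted p = 0.15) were not called. Nor was the dehydrogenase IMD3, which serves leucine synthesis (0.19 ± 0.15, adjusted p = 0.39). GSTF11 and AOP2 were not analysed here.

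Of 14 genes of indole glucosinolates and camalexin, 13 were called higher in h2a.z (12 under both rescalings) and 0 higher in h3.3kd, with a median of -1.16. PAD3 (AT3G26830), the last enzyme of camalexin synthesis, stood at 3.05, 0.978 and 2.52 TPM in h3.3kd against 98.3, 75.5 and 134 in h2a.z (-5.05 ± 0.30, adjusted p = 5.4e-06 by limma). CYP71A13 (AT2G30770), an earlier step, was listed at 0 in all 3 h3.3kd libraries against 15, 9.75 and 26.8 in h2a.z (adjusted p = 2.5e-05). On the glucosinolate side the differences were smaller for the regulator MYB51 (AT1G18570), at 14.2, 15.3 and 15.4 against 53.5, 44.8 and 47.7 (-1.64 ± 0.16, adjusted p = 6.4e-05), and for CYP83B1 (-1.15 ± 0.15, adjusted p = 0.00038). CYP81F2 (AT5G57220), which modifies the indole ring, stood at 5.94, 1.3 and 1.67 against 46.2, 32.9 and 38.9 (-3.52 ± 0.37, adjusted p = 0.00012). MYB34 was the member not called (0.13 ± 0.22, adjusted p = 0.69).

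Genes of glucosinolate breakdown and of the ER body, a store of the glucosidases that act on such compounds, did not go with synthesis. Of 17, 3 were called higher in h3.3kd and 5 higher in h2a.z, with a median of -0.34. ESM1 (AT3G14210), which steers breakdown towards isothiocyanates, stood at 122, 129 and 108 TPM in h3.3kd against 12.3, 16 and 15.7 in h2a.z (2.95 ± 0.16, adjusted p = 4.1e-06 by limma). The lectin JAL33 (AT3G16450) stood at 152, 89.2 and 144 against 6.19, 7.18 and 10.8 (3.83 ± 0.25, adjusted p = 8.4e-06). Both were nearly absent in the combined line, with means of 0.637 and 1.43 TPM. The glucosidase BGLU22 (AT1G66280) went the other way, at 15.4, 29.2 and 33.4 against 102, 188 and 154 (-2.49 ± 0.29, adjusted p = 0.00022). The myrosinase TGG1 (0.23 ± 0.12, adjusted p = 0.2) and the main ER body glucosidase PYK10 (-0.12 ± 0.17, adjusted p = 0.64) were not called.

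**Figure D4:**
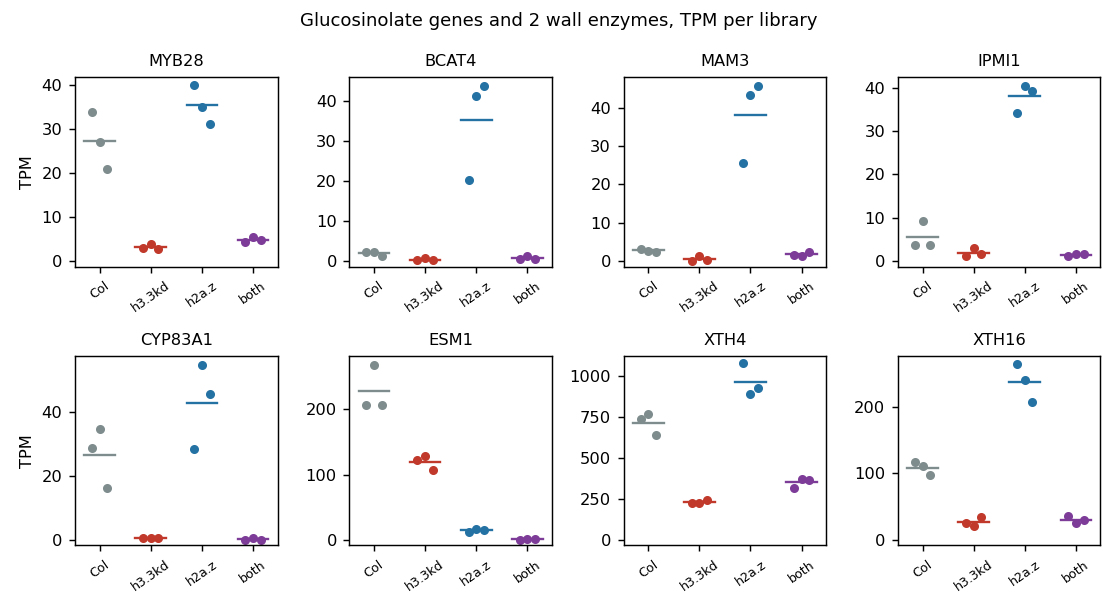
TPM of 6 glucosinolate genes and the wall genes XTH4 and XTH16 in each library of Col, h3.3kd, h2a.z and the combined line (both), with each dot a library and the line the mean of 3. MYB28, BCAT4, MAM3, IPMI1 and CYP83A1 are lower in every h3.3kd library than in any h2a.z library. In Col, BCAT4, MAM3 and IPMI1 lie nearer to h3.3kd, while MYB28 and CYP83A1 overlap h2a.z. ESM1 is higher in h3.3kd, and near 0 in the combined line.

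In warm seedlings PIF4, a light-regulated factor, raises auxin synthesis through YUC8, and auxin then induces IAA19, IAA29 and the SAUR growth genes. In this core no call held under every setting. Of 36 tested genes of warmth and auxin growth, 5 were called higher in h3.3kd (1 to 6 with a library left out, and 1 without h2a.z 2) and 9 higher in h2a.z (6 under both rescalings), with a median of -0.12 that turned to 0.03 and 0.05 under the rescalings. PIF4 (AT2G43010) stood at 37, 32.1 and 40.8 TPM in h3.3kd against 29.6, 17.8 and 16.1 in h2a.z (0.81 ± 0.23, adjusted p = 0.025 by limma), a call that ended without h2a.z 2, h2a.z 3 or h3.3kd 3 (adjusted p up to 0.12). YUC8 (AT4G28720) (-0.51 ± 0.20, adjusted p = 0.087) and IAA29 (AT4G32280) (-0.63 ± 0.25, adjusted p = 0.091) were not called. IAA19 (AT3G15540) was called higher in h2a.z, at 10.2, 3.61 and 5.58 against 11.3, 15.8 and 17.3 (-1.16 ± 0.32, adjusted p = 0.021), but not under either rescaling. The 5 measured genes SAUR19, SAUR20, SAUR22, SAUR23 and SAUR24 were not called and differed by -0.15 to 0.03.

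A few auxin and wall genes of the list were clear. TAA1 (AT1G70560), which makes the auxin precursor, stood at 4.56, 3.98 and 5.99 TPM in h3.3kd against 15.7, 17.3 and 18.8 in h2a.z (-1.66 ± 0.21, adjusted p = 0.00037 by limma). WES1 (AT4G27260), a GH3 enzyme which conjugates auxin, stood at 158, 176 and 147 against 77.5, 84.6 and 72.2 (1.03 ± 0.14, adjusted p = 0.00045). XTR7 (AT4G14130), a xyloglucan-modifying enzyme of shade and warmth responses, stood at 13.5, 19.7 and 17.5 against 70.4, 72 and 58 (-1.93 ± 0.18, adjusted p = 5.6e-05), with 76.3, 61.1 and 66.8 in Col, which overlap those of h2a.z. The wider xyloglucan enzyme family followed this, with 17 of 29 called higher in h2a.z, as many under both rescalings, and 2 higher in h3.3kd (median -0.91). Its abundant member XTH4 (AT2G06850) stood at 228, 224 and 242 against 1082, 890.1 and 929.6 (-2.05 ± 0.13, adjusted p = 7.6e-06) and XTH16 (AT3G23730) at 25.9, 20.3 and 34.5 against 264, 240.3 and 206 (-3.12 ± 0.20, adjusted p = 7.2e-06). Among 24 expansins, which loosen walls, 10 were higher in h2a.z and 2 in h3.3kd. In both families the 2 were 1 without h3.3kd 1, h2a.z 2 or h2a.z 3, and among xyloglucan enzymes also without h3.3kd 3.

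Chaperones stood higher in h2a.z. Of 26 heat shock genes, 15 were called higher in h2a.z (9 under both rescalings) and 1 higher in h3.3kd, with a median of -0.98. HSP70-4 (AT3G12580), a heat-induced chaperone, stood at 41.1, 37.4 and 43.3 TPM in h3.3kd against 72.1, 89.6 and 102 in h2a.z (-1.09 ± 0.16, adjusted p = 0.00093 by limma). The small heat shock protein gene HSP17.4 (AT3G46230) stood at 0.272, 0 and 0.287 against 5.5, 5.97 and 7.86 (-2.65 ± 0.25, adjusted p = 5.8e-05). BIP2 (AT5G42020), the chaperone of the endoplasmic reticulum, stood at 52.2, 65.8 and 54.3 against 112, 177 and 191 (-1.43 ± 0.20, adjusted p = 0.00066). The 1 gene on the other side was the drought and heat factor DREB2A (AT5G05410), at 28.7, 22.6 and 31.6 against 7.5, 7.63 and 7.43 (1.74 ± 0.19, adjusted p = 0.00015). HSP90.1 (-0.24 ± 0.16, adjusted p = 0.32) and the master factor HSFA1A (0.42 ± 0.23, adjusted p = 0.21) were not called.

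Genes for iron and phosphate lay mostly on the h2a.z side. Arabidopsis roots reduce iron with FRO2, take it up with IRT1 and release coumarins made by F6'H1, under FIT and the BHLH38, BHLH39 and BHLH100 factors. Of 23 iron genes, 12 were called higher in h2a.z (9 under both rescalings, 10 to 14 with a library left out) and 1 higher in h3.3kd (2 without h3.3kd 1), with a median of -0.97. IRT1 (AT4G19690) stood at 4.21, 14.6 and 11.8 TPM in h3.3kd against 60, 59 and 74.4 in h2a.z (-2.69 ± 0.35, adjusted p = 0.00037 by limma), and FRO2 (AT1G01580) at 1.12, 3.68 and 2.81 against 16.7, 19.1 and 21.9 (-2.58 ± 0.30, adjusted p = 0.0002). F6'H1 (AT3G13610) stood at 3.29, 0 and 3.32 against 37.3, 48.3 and 46 (-4.08 ± 0.48, adjusted p = 0.00023). NAS4 (AT1G56430), which makes the iron chelator nicotianamine, stood at 6.51, 8.13 and 6.93 against 21.7, 21 and 24.5 (-1.52 ± 0.19, adjusted p = 0.0003). The factors BHLH39 (-1.85 ± 0.43, adjusted p = 0.0091) and BHLH100 (-2.46 ± 0.36, adjusted p = 0.0008) were higher in h2a.z too, and FIT was not called (-0.84 ± 0.35, adjusted p = 0.098).

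Of 16 phosphate starvation genes, 11 were called higher in h2a.z (9 under both rescalings, but 7 without h2a.z 1 or h2a.z 2) and 0 higher in h3.3kd, with a median of -0.99. The transporter PHT1;4 (AT2G38940) stood at 1.85, 3.79 and 4.41 TPM in h3.3kd against 14.7, 22.5 and 21.9 in h2a.z (-2.28 ± 0.29, adjusted p = 0.00032 by limma). The non-coding RNA gene AT4 (AT5G03545) stood at 5.67, 1.31 and 4.48 against 33.1, 25.4 and 23.1 (-2.67 ± 0.36, adjusted p = 0.00049). Sulfur genes had 6 of 13 higher in h2a.z (3 without h3.3kd 3, h2a.z 2 or h2a.z 3, and 3 under quantile normalization) and 1 higher in h3.3kd (0 without h3.3kd 3, h2a.z 1 or h2a.z 2), with a median of -0.68. APK2 (AT4G39940), which makes the active sulfate that glucosinolate synthesis also uses, stood at 21.3, 19.2 and 18.1 against 79.9, 68.2 and 77.6 (-1.89 ± 0.15, adjusted p = 2.4e-05).

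Of 19 nitrate genes, 5 were called higher in h2a.z (10 without h3.3kd 2) and 2 higher in h3.3kd, with a median of -0.25. The xylem loading transporter NRT1.5 (AT1G32450) stood at 71.2, 74.7 and 88.1 TPM in h3.3kd against 189, 247 and 224 in h2a.z (-1.48 ± 0.15, adjusted p = 8.8e-05 by limma). Nitrate reductase NIA1 (AT1G77760) went the other way, at 745, 1214 and 816 against 369, 297 and 416 (1.34 ± 0.20, adjusted p = 0.00089). Among 15 sugar starvation genes 5 were higher in h2a.z and 1 in h3.3kd (2 without h3.3kd 1). DIN11 (AT3G49620), a dark-inducible dioxygenase, stood at 0.154, 0.592 and 0.39 against 42.5, 32.5 and 61.3 (-5.04 ± 0.27, adjusted p = 3.7e-06), and the abundant sugar-repressed gene EXL2 (AT5G64260) at 1115, 1281 and 1413 against 503, 479 and 437 (1.42 ± 0.14, adjusted p = 7e-05).

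Root markers moved with these groups. Summed over 11 root markers, TPM was 76.4, 142.3 and 128.1 in h3.3kd against 195.7, 208.2 and 212.1 in h2a.z, with 146.1 to 186.9 in Col. Of the 10 tested, 5 were called higher in h2a.z, namely IRT1, PHT1;4, RHD6, PLT1 and WER (3 of the 5 under both rescalings), of which the first 2 are also members of the nutrient lists. CASP1, SCR, EXPA7 and COBL9 were not called. Without IRT1 and PHT1;4, left out once their values were known, the sums were 70.4, 123.9 and 111.9 in h3.3kd against 121, 126.7 and 115.8 in h2a.z, which overlap. All 11 root markers were above 0 in every h2a.z library, and 9 to 11 in the h3.3kd libraries. Their part in the results for nutrients, peroxidases and lipid transfer proteins was not tested. Of 21 root hair genes, 3 were called higher in h2a.z (1 under quantile normalization, 0 without h2a.z 2) and 0 higher in h3.3kd.

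**Figure D5:**
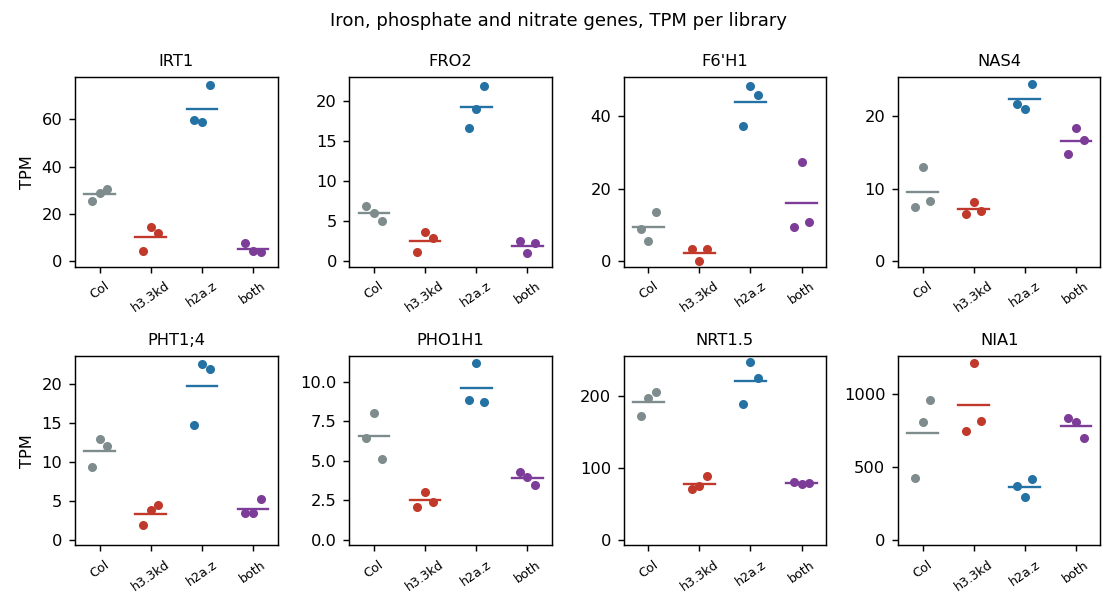
TPM of 8 nutrient genes in each library of Col, h3.3kd, h2a.z and the combined line (both), with each dot a library and the line the mean of 3. IRT1, FRO2, F6'H1, NAS4, PHT1;4, PHO1H1 and NRT1.5 are lower in every h3.3kd library than in any h2a.z library, and NIA1 is higher.

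Other processes separated the lines little or by single genes. Of 32 nuclear photosynthesis genes, 4 were called higher in h3.3kd (8 without h3.3kd 2) and 5 higher in h2a.z (2 under both rescalings, and 2 without h2a.z 1 or h2a.z 3), with a median of 0.15. The antenna gene CAB3 (AT1G29910) stood at 11190, 5671 and 5511 TPM in h3.3kd against 1870, 2760 and 2488 in h2a.z (1.59 ± 0.27, adjusted p = 0.0018 by limma), with near-identical copies among which reads may have been split. LHCB2.1 went the other way (-1.09 ± 0.23, adjusted p = 0.0059). The summed TPM of the 5 photosynthetic shoot markers overlapped, at 35590 to 67560 in h3.3kd and 35680 to 38540 in h2a.z.

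DNA replication genes had 7 of 21 higher in h2a.z, a count that was 14 without h3.3kd 2 and 3 without h3.3kd 3, h2a.z 2 or h2a.z 3, and 0 higher in h3.3kd. PCNA1 (AT1G07370), the replication clamp, stood at 9.36, 12.6 and 8.72 against 26.6, 31.1 and 30.3 TPM (-1.45 ± 0.19, adjusted p = 0.00046 by limma). Of 18 mitosis genes 1 was called, higher in h2a.z (7 without h3.3kd 2). The 6 markers of meristem and dividing cells summed to 67.3 to 76.6 TPM in h3.3kd and 83.4 to 94.2 in h2a.z, and their part in these counts was not tested. Guard cell markers summed to 18.9 to 24.0 and 14.6 to 25.6 TPM, and pollen markers to 4.89 to 6.57 and 5.02 to 6.71, all overlapping.

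Of 16 clock genes, 3 were called each way, and of those higher in h2a.z 1 was called under both rescalings. PRR3 (AT5G60100), a clock repressor, was higher in h2a.z (-1.54 ± 0.23, adjusted p = 0.0008 by limma), and ZTL (AT5G57360), which targets clock proteins for breakdown, was higher in h3.3kd (0.88 ± 0.18, adjusted p = 0.005). The 3 higher in h3.3kd were 1 when h3.3kd 3 or any single h2a.z library was left out. Of 12 flowering genes, 4 were called higher in h2a.z (1 under both rescalings, and 2 without h2a.z 1 or h2a.z 2) and 0 higher in h3.3kd. SPL3 (AT2G33810), which promotes flowering, was among them (-1.62 ± 0.34, adjusted p = 0.0059), while the repressor FLC (AT5G10140) was not called (0.47 ± 0.22, adjusted p = 0.15). Of 10 flavonoid genes 1 was called, the repressor MYBL2 (AT1G71030), higher in h2a.z (-1.67 ± 0.20, adjusted p = 0.00024).

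Some large differences lay outside these lists. The methylesterase gene MES18 (AT5G58310) stood at 0.28, 0 and 0.0984 TPM in h3.3kd against 45.9, 69.4 and 59.2 in h2a.z (-5.70 ± 0.23, adjusted p = 9.4e-07 by limma). The acyltransferase AACT1 (AT5G61160) was listed at 0 in all 3 h3.3kd libraries against 34.3, 24.3 and 25.9 in h2a.z (adjusted p = 2.4e-06). The peroxidase AT2G41480 stood at 0.892, 1.07 and 0.235 against 44.2, 42.9 and 44.3 (-4.73 ± 0.24, adjusted p = 2.8e-06). In the other direction RPL12-C (AT3G27850), a chloroplast ribosomal protein gene, stood at 1380, 1408 and 1581 against 398, 379 and 361 (1.94 ± 0.13, adjusted p = 8.4e-06).

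Families grouped by product name were counted in the same way. No family count in the text was repeated with a TPM of 1 or more required in all 6 libraries. Members near 0 in h3.3kd that entered through the h2a.z libraries alone therefore add to the h2a.z counts. The peroxidase AT5G19890 is such a member, at 0, 0 and 0.227 against 19.7, 34.5 and 35.8 TPM. Class III peroxidases had 35 of 55 called higher in h2a.z and 3 higher in h3.3kd (median -0.99). Cytochrome P450 genes had 82 of 161 and 9 (median -0.77), WRKY factors 26 of 51 and 1 (median -0.72) and glutathione transferases 24 of 46 and 2 (median -0.89). Aquaporins had 15 of 27 and 4, genes named for UDP-linked enzymes 47 of 144 and 18, pectin lyase genes 14 of 44 and 1, SAUR-like genes 18 of 56 and 7, and HSP20-like genes 7 of 24 and 3. Several of these counts moved by more than 1.5 times. Under both rescalings the counts higher in h2a.z were 8 for aquaporins, 8 for pectin lyase genes, 11 for SAUR-like genes and 4 for HSP20-like genes. Aquaporins higher in h2a.z were also 8 without h2a.z 1 or h2a.z 2, and pectin lyase genes 7 without h2a.z 1. Of the counts higher in h3.3kd, the UDP group had 7 without h2a.z 2 and 10 without h2a.z 3 or h3.3kd 3, and cytochrome P450 genes 5 and aquaporins 2 without h2a.z 2. SAUR-like genes had 4 without h3.3kd 3 or any single h2a.z library, and HSP20-like genes had 0 without h2a.z 2 and 1 without h3.3kd 3 or either other h2a.z library. The small h3.3kd counts of WRKY, glutathione transferase and pectin lyase genes ranged from 0 to 2.

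Ribosomal protein genes had 66 of 310 (21.3%) called higher in h2a.z and 16 higher in h3.3kd. The 66 were 25 (8.06%) under both rescalings, where all genes gave 12.9%, and were 29 without h2a.z 2 and 35 without h2a.z 3. The 16 ranged from 5 without h2a.z 3 to 28 without h3.3kd 2, and were 9 without h2a.z 1, 7 without h2a.z 2 and 8 without h3.3kd 3.

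The Col libraries of the wild type, which were not in the test, were set beside the lines by their means. Of the 1417 genes higher in h3.3kd, the mean of Col lay between the lines for 75.3%, and of the 4010 higher in h2a.z for 78.6%. Over all tested genes it was 47.4%. Called genes were selected for a wide gap between the line means, and any other mean falls inside a wide gap more often. The higher shares among called genes can therefore come from the selection, and nothing about the wild type is concluded from them. Col was nearer to h3.3kd than to h2a.z for 45.3% of the first group, 48.7% of the second and 46.3% of all genes. In the combined line, the mean was nearer to h3.3kd than to h2a.z for 64.4% of the genes higher in h3.3kd, for 82% of those higher in h2a.z and for 64.7% of all tested genes. These shares describe means of TPM without rescaling and were not tested. The median TPM of a library was 9.93 to 10.2 in the combined line, 8.79 to 11.2 in h3.3kd and 11.8 to 12.0 in h2a.z. The part of scaling in these shares was not tested.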

How the data were processed

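The authors deposited 1 table of TPM, which is per 1000000 and length-normalized, for 23387 genes in 12 libraries, and each column sums to 1000000. The submitters' processing notes name fastp 0.20.1, HISAT2, HTSeq 0.11.2, DESeq2 1.26.0 and build TAIR10, without roles. Per the labels' protocols, total RNA was extracted with a Takara plant kit and libraries were made with a NEBNext Ultra kit. Gene lengths, counting mode, strand and read depth are not stated there, so overlapping and antisense genes cannot be told apart. Raw counts were not analysed here, so tests for counts were not run.

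From the deposited TPM, log2(TPM + 1) was computed for the 3 h3.3kd and 3 h2a.z libraries, and a gene was kept where 3 or more of these 6 libraries reached 1 TPM. limma 3.58.1 in R 4.3.3 was fitted with a mean per genotype and eBayes with an intensity trend, with two-sided tests adjusted by Benjamini-Hochberg over all 19416 genes. On simulated data of this size the fit called 43% of 100 genes changed 2-fold, 86% of 100 changed 4-fold, all placed at higher levels, and 7 unchanged genes. The simulated noise was independent between libraries, with equal spread in both lines and no difference in scaling. The 7 therefore do not measure false calls in the real table. Tables and figures used Python 3.11.15, numpy 2.4.6, pandas 2.3.3 and matplotlib 3.10.9.

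The genotypes compared, the gene lists and the markers were chosen with earlier results of these data known. Lists are described by counts and medians and were not tested. Symbols and promoter windows came from RefSeq TAIR10.1 by locus identifier, which matched 23235 genes and gave 9705 a symbol. Some list members bear their usual names instead. The rule for named genes took the 6 targeted histone genes, the 10 largest called differences each way that had a symbol, 5 TPM or more in the higher line and no overlap, up to 4 called members of each list and 2 of each family by adjusted p, and PIF4, YUC8, IAA19, IAA29, FLC and HSP70-4. Other genes in the text were chosen after their values were seen. After the table was read, 2 genes whose identifiers did not match their names were removed from the lists and 4 list members were given another name. Listed genes that are not in the table, such as MYC2 and ALD1, were not analysed here. A family keyword for transposable elements found no gene.

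In all, 19 alternatives were run, covering pseudocounts of 0.1 and 0.5, filters, 2 rescalings, the model, leaving out each library in turn and a minimum of 2-fold.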

Additional observations from a re-analysis of the deposited data

How the results depend on the processing

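With a TPM of 1 or more required in all 6 libraries, 16913 genes were tested and 2643 were called higher in h2a.z. With a mean TPM of 5 or more, 15352 genes were tested and 2539 were called higher in h2a.z. Fewer genes enter both. Under the first of these filters, members called higher in h2a.z were 8 for heat shock genes and 6 for iron genes. Median-ratio rescaling gave 2445 genes higher in h3.3kd, 42.4% of calls and a median difference of -0.022 over all genes. Quantile normalization gave 2807, 50.7% and 0.047. Array weights gave 4380 genes higher in h3.3kd and 8601 higher in h2a.z, with an estimation that stopped before it converged, and the cause was not tested. A 2-fold minimum left 543 and 2497. Over the 6 fits without a library, 781 to 1826 genes were higher in h3.3kd and 2663 to 6050 higher in h2a.z. The share of calls higher in h3.3kd was 22.2% to 31.0% and the median difference -0.24 to -0.10.

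Same-numbered libraries of the 2 lines did not deviate together (correlations of -0.18, 0.00 and -0.05), and unlike-numbered pairs gave -0.11 to 0.18. With 3 libraries per line these values cannot settle whether the numbers mark a shared batch. The numbers were not used as pairs in the main fit. With the replicate number as a block, 1189 genes were higher in h3.3kd and 3775 higher in h2a.z.

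Of the 5427 called genes, 4741 were called in the same direction after median-ratio rescaling and 4110 after quantile normalization, and 3419 without h2a.z 2, the lowest of the 6 fits. Of the 136 named genes, 133 were called. Under every alternative that tested them, 117 stayed on the same side of the threshold, and 0 changed sign. Genes below 1 TPM in any of the 6 libraries were absent from the strictest filter, so not all 19 alternatives tested them. Most named genes were picked by adjusted p or size of difference, which favours such stability. Of 1026 counts of list members over the 19 alternatives, 863 were within 1.5 times the value reported. The unknown read depth limits what can be said of genes listed at or near 0, whose differences on the log2(TPM + 1) scale depend on the pseudocount.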
